A study of Bos taurus with 9 samples.

Results

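The 4 inhibitor of DNA binding genes, *ID1* to *ID4*, and 6 genes of the bone morphogenetic protein (BMP) pathway, *BMP2*, *BMP4*, *BMPR1A*, *SMAD1*, *SMAD5* and *SMAD6*, were followed in single D8 bovine blastocysts. These 10 genes were taken by symbol from the 21512 genes of the deposited table. They were brought together because *ID2* was already known to be lower on average in *TEAD4* KO than in WT embryos, so the differences between genotypes are described for these 10 genes and not tested. The question was whether the other genes that respond to BMP moved with *ID2*.

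BMP ligands such as BMP2 and BMP4 bind type I and type II receptor kinases at the cell surface, and the type I receptor phosphorylates SMAD1, SMAD5 and SMAD9. These join SMAD4 and enter the nucleus, where the *ID* genes, *SMAD6* and *SMAD7* are among the best known direct targets. ID proteins lack a DNA-binding region and hold E proteins and other helix-loop-helix factors away from DNA, and in the mouse blastocyst *Id2* is known as a gene of the trophectoderm (TE).

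Libraries were made from 5 WT and 4 KO embryos, 1 embryo each, from the whole blastocyst with inner cell mass and TE together. All embryos were produced *in vitro*, fertilized with the semen of one bull and injected with *Cas9* mRNA as oocytes, without a guide RNA for WT and with a guide to the fourth exon of *TEAD4* for KO. KO embryos carried only frame-disrupting alleles, which were made at random and can differ between embryos, and each genotype was read from DNA of the same embryo. WT embryos carry the names WT_1 to WT_5 and KO embryos TE_1 to TE_4, and series of values below keep this order. Levels are in TPM, the share of a transcript among all transcripts after correction for its length, scaled so that each library sums to 1000000. TPM does not keep the number of reads, so the depth of each library cannot be read from the table, and in a whole embryo fewer cells of a type cannot be told apart from less RNA per cell.

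Between 14807 and 16678 genes were above 0 TPM in the WT libraries and between 14776 and 15375 in the KO libraries. Size factors, the median ratio of a library's TPM to the mean over libraries for genes above 0 in all, ran from 0.759 to 1.24. The lowest was that of TE_1 and the highest that of TE_2. Single TPM values below are not divided by them, so a typical gene read lower in TE_1 and higher in TE_2. The edited gene *TEAD4* was found in every library, with WT values of 18.04, 52.5, 54.3, 36.5 and 43.4 TPM and KO values of 42.8, 41.8, 12.5 and 22.2 TPM, which does not show whether a transcript carries an indel. Of 14599 genes with a median above 0.1 TPM, 3 (0.0205%) passed an adjusted p of 0.05 and an absolute log2 fold change of 1 in limma, a linear model fitted to all of them on log2(TPM + 1). With TE_3 left out the count was 10, and it was 0 when the embryo left out was TE_1, TE_2, TE_4, WT_3 or WT_4. Markers of TE and inner cell mass were present, but several epiblast markers varied widely between embryos. WT_1 and TE_3 had the lowest levels of *SOX2*, a core pluripotency factor, at 3.89 and 2.26 TPM, where the other 7 embryos had at least 19.5 TPM. Both also listed *HNF4A*, an endoderm transcription factor, at 0, and had the lowest values of the epiblast marker *PRDM14*, 2.86 and 4.27 TPM. The epiblast marker *FGF4* was at 0 in WT_1 and TE_3 and above 0 in all other embryos. *NANOG*, on the same list, was at 0.127 TPM in WT_1 and 3.55 TPM in TE_3, but TE_2 was at 2.70 TPM. Some other markers did not set both apart. *POU5F1*, an epiblast marker, was at 1352 TPM in TE_3, within the WT range of 773 to 1693 TPM. *SOX15*, also on that list, was at 95.9 TPM in WT_1, the median of the 9 embryos. Their highest values were 2.77 and 3.57 times their lowest. The hypoblast marker *SOX17* was at 11.5 TPM in TE_3, above the median of 8.89 TPM. Of 10 markers of cumulus and granulosa cells, which surround the oocyte, 5 were above the median threshold, and the summed level of all 10 was 15.1 to 28.2 TPM in WT and 3.14 to 26.9 TPM in KO. In every embryo but TE_4 *FSHR* made up most of it, at 26.8 TPM or less. *TNFAIP6* was at most 2.08 TPM and *AMH* at most 2.27 TPM.

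All 10 genes were above 0 TPM in all 9 embryos and above the median threshold. 0 of the 10 were among the called genes in limma, against 0.0205% of all genes tested, and in 0 of the 10 did the WT and KO values separate, whereas in 1.23% of all genes the KO embryos all lay below the WT embryos and in 0.801% they all lay above. The mean of log2(TPM + 1) was lower in KO for 4 of the 10, *ID2*, *ID3*, *SMAD6* and *ID1*, against 55.8% of all genes tested. The difference of these means, KO minus WT, is given below in log2 units with its standard error (SE) from limma. It was below −1 for 2 of the 10, *ID2* and *ID3*, against 2.39% of all genes, and above 1 for 0 of the 10, against 1.14%. The median difference, KO minus WT, was 0.11 log2 units over the 10 genes and −0.046 over all genes tested. After quantile normalization these medians were 0.22 and 0.016, and 6985 of the 14599 genes had a lower mean in KO in place of 8150. For 7 of the 10 the difference was smaller than its standard error. These numbers are descriptions, since the KO and WT values were known when the genes were chosen.

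**Figure D1:**
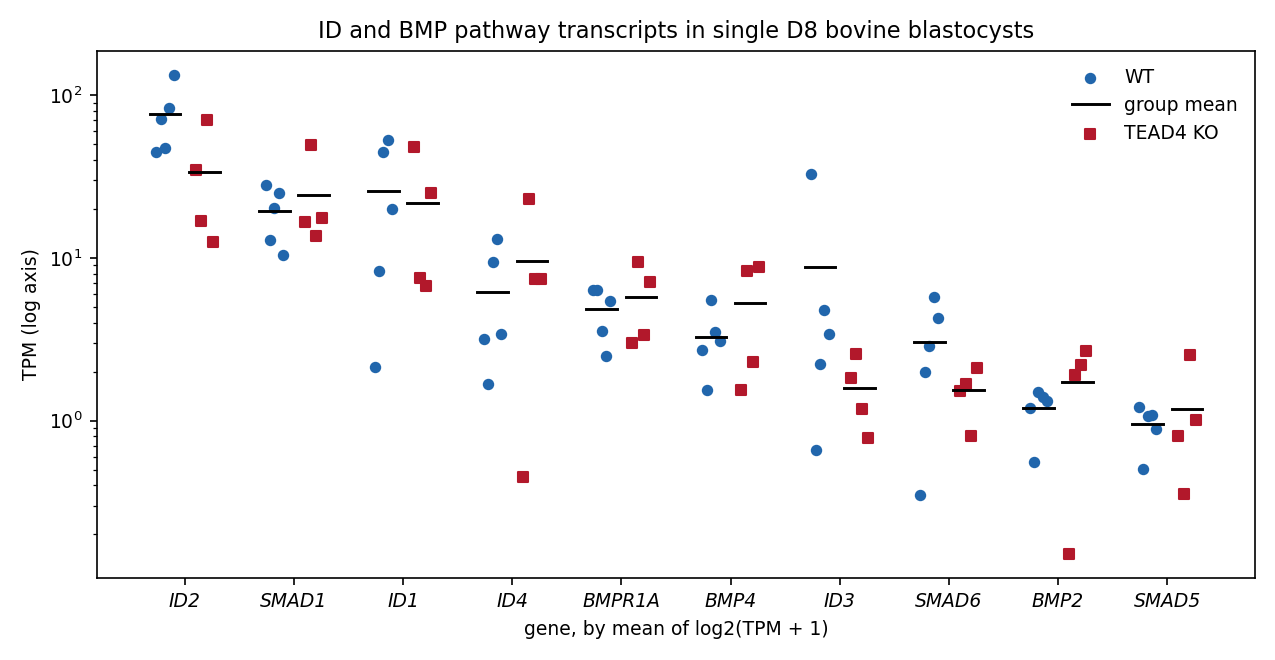
TPM of the 10 genes (log axis) in each of 5 WT (blue circles) and 4 TEAD4 KO (red squares) blastocysts, with the group mean as a black line; genes are ordered by their mean of log2(TPM + 1) over the 9 embryos. The WT and KO values of every gene overlap, and ID2 is the only gene with 3 KO embryos below all 5 WT embryos.

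*ID2* measured 45.1, 71.4, 47.1, 83.8 and 133.7 TPM in WT and 34.8, 16.9, 70.9 and 12.5 TPM in KO embryos. TE_1, TE_2 and TE_4 lay below every WT embryo, while TE_3 lay within the WT range. WT embryos averaged 76.2 ± 36.1 TPM (SD, n = 5) against 33.8 ± 26.6 TPM for KO embryos (SD, n = 4), a difference of −1.34 log2 units (SE 0.48). With single embryos left out it ranged from −1.80 (without TE_3) to −0.99 (without TE_4).

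*ID1*, the classical early BMP target, did not share this pattern. The WT embryos had 2.15, 8.30, 44.8, 53.4 and 20.0 TPM and the KO embryos 48.3, 7.57, 6.75 and 25.1 TPM. Every KO value lay inside the WT range, which itself spanned 24.9-fold. The difference was −0.015 (SE 0.82), and its sign changed with the embryos included (−0.63 without WT_1 and 0.40 without WT_4), with size factors (0.046) and with a pseudocount of 0.1 TPM (0.031). TE_1, among the 3 KO embryos low for *ID2*, had the second highest *ID1* value of the 9 embryos.

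*ID3* was low in all embryos but 1. The WT embryos had 32.8, 0.660, 2.24, 4.81 and 3.41 TPM and the KO embryos 1.82, 2.56, 1.18 and 0.787 TPM. Values of the groups, with means of 8.79 ± 13.5 TPM (SD, n = 5) and 1.59 ± 0.775 TPM (SD, n = 4) overlapped, and WT_1 alone stood above 5 TPM. The difference of −1.11 (SE 0.69) became −0.45 without WT_1 and −1.54 without WT_2.

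*ID4* measured 3.20, 1.69, 9.43, 13.0 and 3.42 TPM in WT and 0.449, 23.0, 7.43 and 7.40 TPM in KO embryos. A KO embryo, TE_1, had the lowest value and another, TE_2, the highest, 51.3 times as high, with all WT embryos between them. KO minus WT was 0.25 (SE 0.73), −0.34 without TE_2 and 1.01 without TE_1.

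Since TPM is a level per transcript length, the ID genes can also be added up within an embryo. Their sum was between 82.0 and 160.6 TPM in WT and between 45.7 and 86.2 TPM in KO. *ID2* was the highest of the 4 in all 5 WT embryos and in TE_3, *ID1* was the highest in TE_1 and TE_4, and *ID4* in TE_2. *ID2* made up 45.5% to 87.0% of the sum in WT, 82.2% in TE_3, and 40.8%, 33.7% and 27.3% in TE_1, TE_2 and TE_4. The sum of the other 3 ID genes was 40.7 ± 23.9 TPM for WT (SD, n = 5) and 33.1 ± 14.4 TPM for KO (SD, n = 4), and all 4 KO values, from 15.4 to 50.6 TPM, lay within the WT range of 10.7 to 71.2 TPM.

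**Figure D2:**
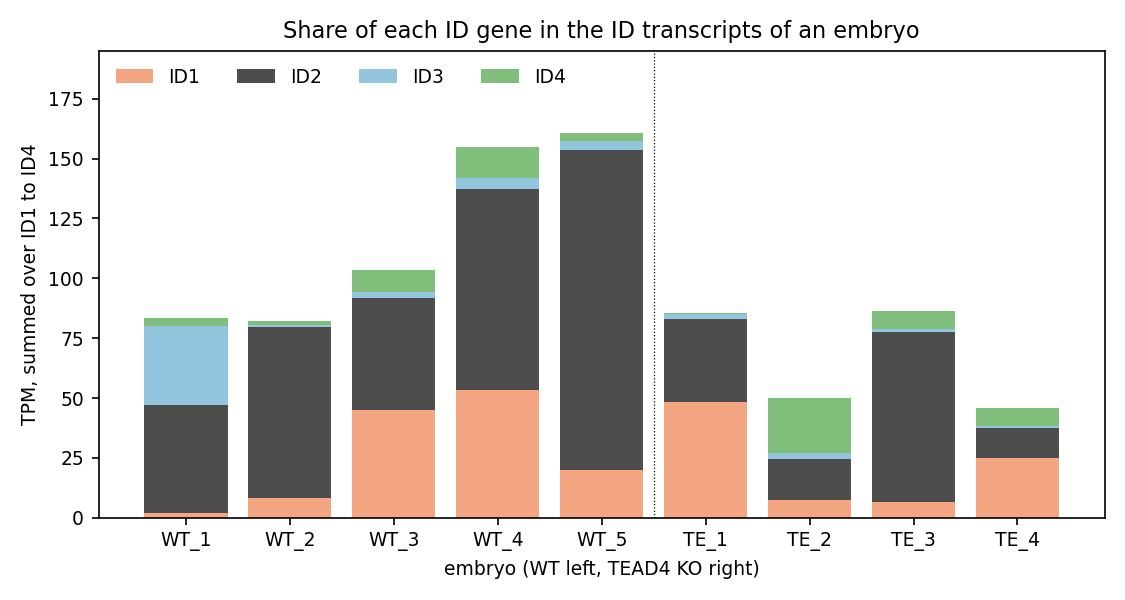
Stacked TPM of ID1, ID2, ID3 and ID4 in each embryo, with 5 WT embryos on the left and 4 TEAD4 KO embryos on the right of the dotted line. ID2 (dark grey) is the tallest part in the WT embryos and in TE_3, and the sums run from 45.7 TPM in TE_4 to 160.6 TPM in WT_5.

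The ID genes were among the more variable genes in their spread between embryos of the same genotype. The residual standard deviation of log2(TPM + 1) around the genotype means was 1.54 for *ID1*, 1.33 for *ID4*, 1.26 for *ID3* and 0.86 for *ID2*. These were larger than in 98.8%, 98.0%, 97.5% and 90.0% of all genes tested. The ligands, receptor and SMADs among the 10 genes lay between 39.8% (*SMAD5*) and 85.0% (*BMP4*) on the same scale. This scale takes no account of the level of a gene, and these positions are descriptions.

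Of the ligands, *BMP2* measured 1.19, 0.555, 1.51, 1.39 and 1.33 TPM in WT and 0.152, 1.91, 2.19 and 2.67 TPM in KO embryos. TE_2, TE_3 and TE_4 were above every WT embryo and TE_1 was below every WT embryo. KO minus WT was 0.21 (SE 0.34), between 0.025 without TE_4 and 0.58 without TE_1.

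*BMP4* measured 2.72, 1.53, 5.52, 3.51 and 3.08 TPM in WT and 1.55, 8.36, 2.29 and 8.84 TPM in KO embryos. TE_2 and TE_4, in which *ID2* was lowest, had the highest *BMP4* values of the 9 embryos. The difference was 0.37 (SE 0.46), between 0.070 without TE_4 and 0.72 without TE_1.

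The type I receptor gene *BMPR1A* measured 6.31, 6.33, 3.57, 2.51 and 5.46 TPM in WT and 2.996, 9.40, 3.36 and 7.13 TPM in KO embryos. TE_2 and TE_4 were again above every WT embryo, and TE_1 and TE_3 lay within the WT range. Between genotypes it differed by 0.14 (SE 0.39), between −0.11 without TE_2 and 0.35 without TE_1.

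*SMAD1*, which carries the signal from the receptor, had the second highest mean of log2(TPM + 1) of the 10 genes but a lower mean TPM than *ID1* (21.5 against 24.0 over the 9 embryos), with 28.1, 12.9, 20.2, 24.9 and 10.4 TPM in WT and 16.6, 49.3, 13.7 and 17.7 TPM in KO embryos. TE_2 alone stood above the WT range. The difference was 0.22 (SE 0.41), between −0.18 without TE_2 and 0.42 without TE_3.

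*SMAD5*, a transducer of the same kind, measured 1.21, 0.508, 1.06, 1.08 and 0.884 TPM in WT and 0.808, 0.353, 2.53 and 1.02 TPM in KO embryos. TE_3 was the highest and TE_2 the lowest of the 9 embryos. Between genotypes it differed by 0.080 (SE 0.27), between −0.18 without TE_3 and 0.28 without TE_2.

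*SMAD6* encodes an inhibitory SMAD that BMP signalling induces and that acts back on the receptors. The WT embryos had 0.348, 1.99, 2.88, 5.74 and 4.27 TPM and the KO embryos 1.52, 1.69, 0.802 and 2.12 TPM. The KO embryos all lay inside the WT range and below the WT median of 2.88 TPM. KO minus WT was −0.51 (SE 0.43), between −0.86 without WT_1 and −0.28 without WT_4.

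The order of the 10 genes by their mean of log2(TPM + 1) over the 9 embryos was *ID2*, *SMAD1*, *ID1*, *ID4*, *BMPR1A*, *BMP4*, *ID3*, *SMAD6*, *BMP2* and *SMAD5*. The difference within an embryo between each gene and the next in this order was compared with 0 by an exact sign-flip permutation test over the 9 embryos, two-sided. 0 of the 9 neighbouring pairs were told apart, with adjusted p-values from 0.229 to 0.859 and 0 unadjusted p-values under 0.05. The order came from these same means and neighbours are the closest genes in it, so the test favours small gaps. It does not show that the levels of the 10 genes are alike. *ID2* was higher than *SMAD1* in 7 of 9 embryos, a mean difference of 1.21 ± 1.53 log2 units (SD, n = 9; exact permutation p = 0.0508). Against each of the other genes in turn, a comparison chosen after the values were seen, *ID2* was higher than 7 of the 9. For *ID3*, *BMP2*, *BMP4*, *BMPR1A*, *SMAD5* and *SMAD6* this held in 9 of 9 embryos (exact permutation p = 0.00391, the smallest that 9 embryos allow, adjusted p = 0.00586 for each). For *ID4* it held in 8 of 9 (exact permutation adjusted p = 0.0100). *ID1* and *SMAD1* did not pass, and each exceeded *ID2* in 2 KO embryos (exact permutation adjusted p = 0.0508 for both). Because *ID2* already led the order made from these same values, the p-values of *ID2* against the other genes are descriptions.

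The rest of the pathway was described with lists of BMP ligands, receptors, SMAD transducers, response genes, extracellular antagonists, intracellular inhibitors and E proteins, 71 genes in all, of which 68 were looked at and 49 were above the median threshold. Of these 49, 0 were called in limma, for which the lowest adjusted p outside the 10 genes was 0.727. That count was also 0 with any single embryo left out. Outside the 10 genes, 4 of 39 were lower and 1 was higher in KO at an unadjusted p under 0.05, against 3.83% and 2.07% of all genes tested. Counted with *ID2*, whose fall was known when it was chosen, the number was 6 of the 49. It was 4 after quantile normalization and 2 without WT_5. These counts describe its dependence on scaling and embryos and do not test *ID2*. *TCF4* accounts for the 1 E protein gene, a list with 0 such genes under size factors or quantile normalization. The background depends on the scaling too: 35.1% of all such genes were higher in KO with TPM as deposited, 45.1% with size factors and 53.1% after quantile normalization. The 4 lower genes are *SMAD4*, *DLX5*, *SMURF2* and *TCF4*, and the higher one is *BAMBI*.

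**Figure D3:**
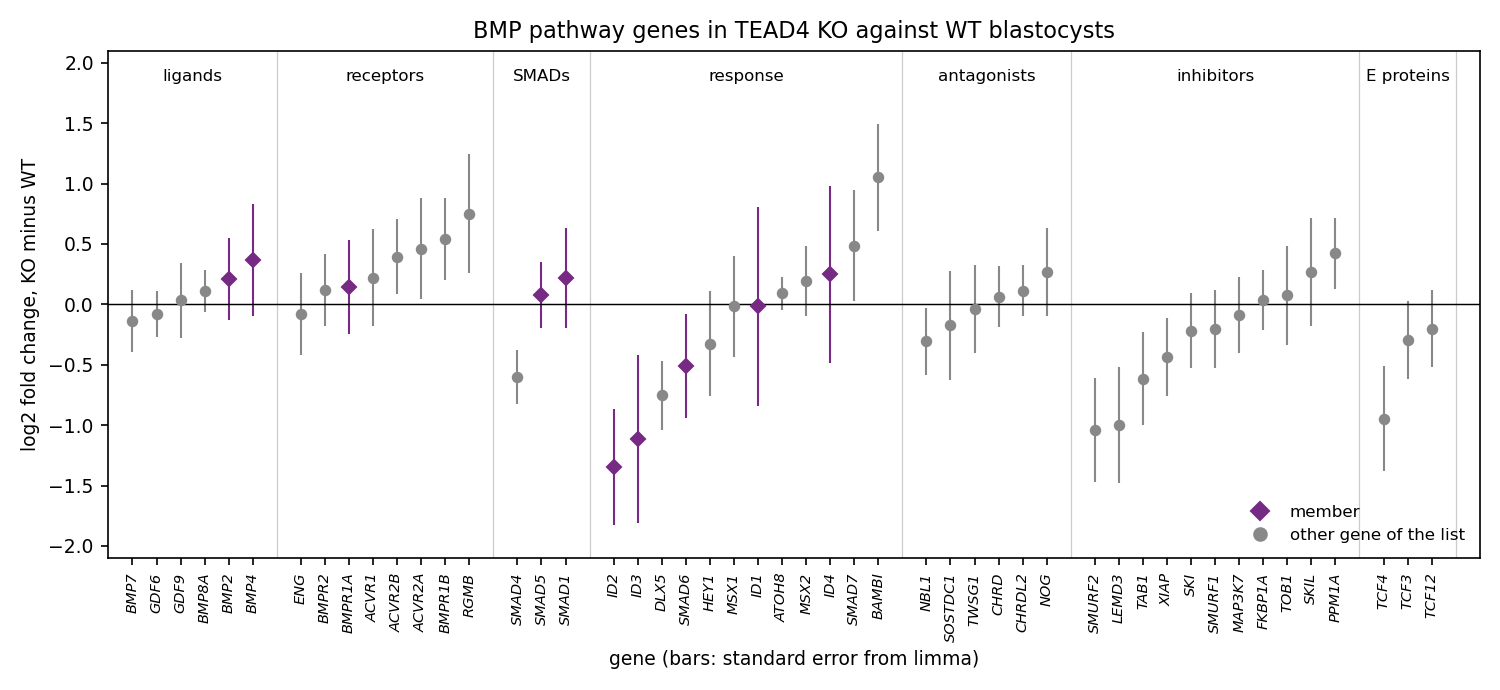
Log2 fold change (KO minus WT, on log2(TPM + 1)) of the 49 BMP pathway genes above the median threshold, grouped by role, with standard errors from limma as bars; purple diamonds are the 10 genes the text follows and grey circles the other genes of the lists. Response genes run from −1.34 (ID2) to 1.05 (BAMBI).

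Among the 12 response genes above the threshold, 7 had a lower mean in KO, against 55.8% of all genes tested, and 5 a higher mean. Their median difference was −0.016. With size factors 5 were lower and 7 higher, and after quantile normalization 6 were lower and 6 higher. *BAMBI*, a pseudoreceptor that damps BMP and TGF-beta signals and is induced by BMP, measured 6.47, 9.49, 12.2, 6.68 and 8.22 TPM in WT and 8.67, 48.4, 11.998 and 22.2 TPM in KO embryos. TE_2 and TE_4 were above every WT embryo, the same 2 embryos in which *ID2* was lowest. Its difference of 1.05 (SE 0.44, limma adjusted p = 0.798) was opposite in sign to that of *ID2*. *DLX5*, a homeobox gene, was below every WT embryo in 3 KO embryos, with means of 1.47 and 0.462 TPM. They were TE_2, TE_3 and TE_4, and the difference was −0.75 (SE 0.29, limma adjusted p = 0.764). *SMAD7*, the other inhibitory SMAD gene, had means of 8.57 and 14.7 TPM, where TE_3 alone reached 33.6 TPM.

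*SMAD4*, the partner shared by the BMP and TGF-beta branches, was the only one of the 49 pathway genes whose genotypes did not overlap. The WT embryos had 27.4, 33.5, 30.2, 36.7 and 30.3 TPM and the KO embryos 17.7, 21.9, 22.1 and 20.2 TPM. Every KO embryo lay below every WT embryo, which was so for 1.23% of all genes tested. WT embryos averaged 31.6 ± 3.59 TPM (SD, n = 5) against 20.5 ± 2.03 TPM for KO embryos (SD, n = 4), which is −0.60 log2 units (SE 0.22, limma adjusted p = 0.727).

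Of the 8 receptor and co-receptor genes above the threshold, 7 had a higher and 1 a lower mean in KO. Over all genes tested, 6449 of 14599 had a higher mean. Both other scalings gave the same numbers for these 8 genes, whose median difference was 0.31. The largest was that of *RGMB*, a BMP co-receptor gene, with a mean of 3.98 TPM for WT and 9.34 TPM for KO (difference 0.75, SE 0.49, limma adjusted p = 0.919), where TE_2 reached 23.4 TPM. *BMPR1B* averaged 0.530 and 1.23 TPM and *ACVR2A* 3.25 and 4.58 TPM in WT and KO. Of the ligands, only 6 of 14 were above the threshold, and *BMP4* had the highest mean. *BMP7*, also a ligand of this family, had means of 0.577 and 0.389 TPM. The extracellular antagonists were low as well: 6 of 12 were above the threshold, *NOG* averaged 0.437 and 0.763 TPM, *NBL1* 1.00 and 0.548 TPM and *SOSTDC1* 1.96 and 1.99 TPM in WT and KO.

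Inside the cell, 8 of the 13 inhibitors and modulators had a lower mean in KO, against 55.8% of all genes tested. It was again 8 of 13 under both other scalings, where 7414 (size factors) and 6985 (quantile normalization) of 14599 genes were lower. *SMURF2*, a ubiquitin ligase that targets SMADs, had means of 17.1 and 9.39 TPM (difference −1.04, SE 0.43, limma adjusted p = 0.789), with 3 of 4 KO embryos below every WT embryo. *LEMD3*, an inner nuclear membrane protein that binds SMADs, averaged 4.12 and 2.12 TPM, and *TAB1*, which activates the kinase TAK1, 8.48 and 5.50 TPM. The partners of the ID proteins, the E protein genes *TCF3*, *TCF4* and *TCF12*, all had lower means in KO. That direction was shared by 55.8% of all genes tested. *TCF4* had WT values of 3.25, 1.42, 1.398, 2.94 and 2.22 TPM and KO values of 0.337, 0.116, 3.83 and 0 TPM, so that the 3 KO embryos below the WT range were those below it for *ID2*. The difference was −0.95 (SE 0.43, limma adjusted p = 0.836). *TCF3* averaged 6.94 and 5.62 TPM and *TCF12* 4.29 and 3.77 TPM.

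Whether *ID2* moved with the other genes from embryo to embryo was asked after subtracting from each gene the mean of its genotype, so that the known difference between genotypes did not enter. Pearson's r and Spearman's rho over the 9 embryos were tested by exact permutation of the pairings within genotypes (2880 pairings, two-sided) for 16 genes, the 11 other response genes and the remaining 5 of the 10 genes, and adjusted over the 16. 0 of the 16 passed an adjusted p of 0.05 and 0 had an unadjusted p under 0.05 for r. For rho, 1 of the 16 had an unadjusted p under 0.05, that of *SMAD1* (rho = −0.72, exact permutation p = 0.0378, adjusted p = 0.584). The lowest adjusted p for r was 0.683, and 6 of the 11 response genes had r above 0 and 5 below 0.

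For *ID1*, r with *ID2* was 0.043 and rho 0.10 (exact permutation p = 0.895 and 0.822, adjusted p = 0.895 and 0.929), and r took either sign with an embryo left out (from −0.24 without WT_1 to 0.39 without TE_3). For *ID3* r was −0.21 and rho −0.067 (exact permutation p = 0.559 and 0.870). It was −0.27 and −0.23 for *ID4* (exact permutation p = 0.634 and 0.665) and 0.12 and −0.033 for *SMAD6* (exact permutation p = 0.736 and 0.940). The adjusted p for r was 0.833 for each of these 3 genes. The highest r of the 16 was that of *MSX1*, a homeobox gene downstream of BMP, at 0.67 with rho 0.70 (exact permutation p = 0.111 and 0.133, adjusted p = 0.683 and 0.584). The lowest was that of *BMP4*, at −0.67 with rho −0.67 (exact permutation p = 0.154 and 0.207, adjusted p = 0.683 and 0.584). *BMPR1A* had an r of −0.55 and a rho of −0.72 (exact permutation p = 0.201 and 0.123), and *BAMBI* of −0.56 and −0.67 (exact permutation p = 0.277 and 0.207). For *SMAD1* r was −0.61 (exact permutation p = 0.140). Values of similar size above 0 were those of *SMAD5* at 0.50, *SMAD7* at 0.48 and *DLX5* at 0.48 (exact permutation p = 0.342, 0.337 and 0.228).

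Without WT_5 and TE_4, the 2 embryos farthest from the median of *ID2*, r was 0.14 for *ID1*, −0.36 for *ID3*, −0.23 for *ID4*, 0.11 for *SMAD6*, 0.76 for *MSX1*, −0.65 for *BMP4*, −0.68 for *BMPR1A* and −0.78 for *SMAD1*. For *SMAD5*, *SMAD7*, *DLX5* and *BAMBI* it was 0.71, 0.37, 0.023 and −0.68. With 9 embryos, intermediate correlations of either sign cannot be told from 0.

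**Figure D4:**
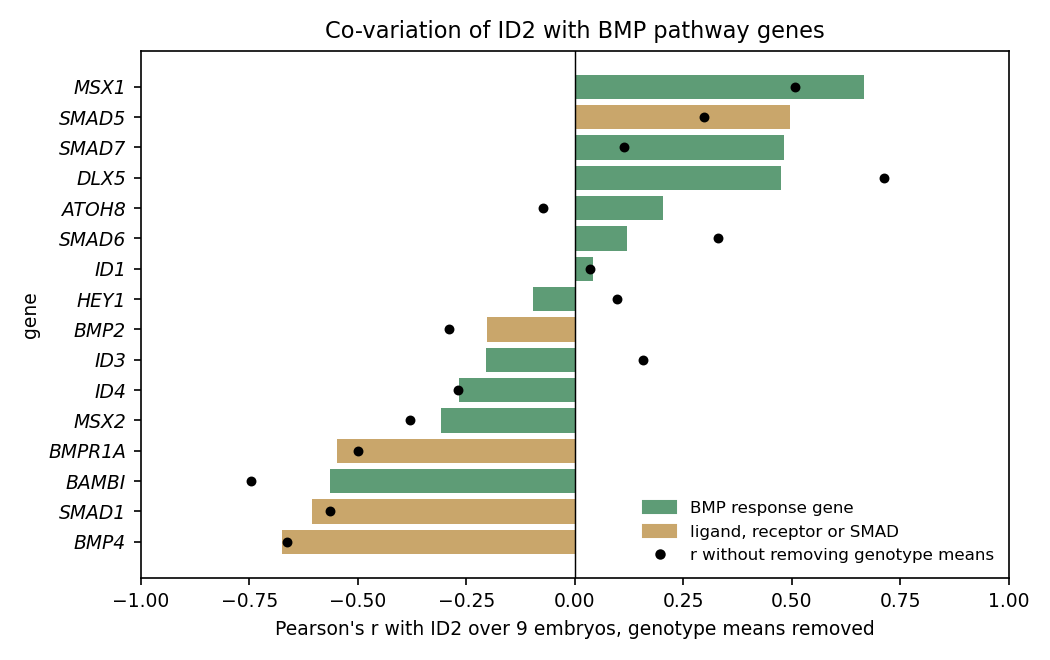
Pearson's r of log2(TPM + 1) between ID2 and 16 BMP pathway genes over 9 embryos after removing genotype means (bars; green for response genes, tan for ligands, receptor and SMADs), with r before removing them as black dots. Bars run from −0.67 (BMP4) to 0.67 (MSX1), and those of ID1, ID3, ID4 and SMAD6 lie between −0.27 and 0.12.

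Among 11218 genes with a median above 1 TPM, ordered by r with *ID2* over the 9 embryos without removing genotype means, the 5 highest were *ENO1*, the glycolytic enzyme enolase 1 (r = 0.975), *UCP2*, a mitochondrial carrier (0.964), *TCF7L1*, a transcription factor of the WNT pathway (0.933), a gene listed as ENSBTAG00000049618 (0.931) and *JOSD2*, a deubiquitinase gene (0.928). *ENO1* measured 1111, 1039, 961, 1371 and 1711 TPM in WT and 823, 504, 1139 and 507 TPM in KO embryos. Its lowest values were in TE_2 and TE_4 and its highest in WT_5, as for *ID2*. In the same order *SMAD6* stood at place 2018, *SMAD5* at 2251, *ID3* at 3265, *ID1* at 4281, *ID4* at 7258, *BMP2* at 7487, *BMPR1A* at 9486, *SMAD1* at 9987 and *BMP4* at 10578. These places are descriptions over embryos that share the genotype difference.

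The relation of the 10 genes to the lineages of the blastocyst was looked at after the values were seen. Markers of TE, epiblast and hypoblast were each summarised in a score, for which log2(TPM + 1) of each gene above the threshold was turned into z-scores over the embryos and averaged (10, 7 and 9 genes). In WT the epiblast score was 0.0636 ± 0.938 (SD, n = 5), and KO embryos lay at −0.0795 ± 0.771 (SD, n = 4), KO minus WT being −0.143 with a two-sided exact permutation p = 0.794. The hypoblast score was 0.275 ± 0.597 (SD, n = 5) for WT and −0.344 ± 0.222 (SD, n = 4) for KO, KO minus WT being −0.619 with a two-sided exact permutation p = 0.0952. For the TE score KO minus WT was −0.278 (two-sided exact permutation p = 0.556). The summed TPM of the lists overlapped between genotypes, at 880 to 2352 in WT and 1416 to 2333 in KO for the epiblast, 90.6 to 181 and 56.5 to 172 for the hypoblast, and 4256 to 19106 and 6689 to 13290 for TE. Of the markers in these scores, *GATA4* had every KO embryo below every WT embryo, which was so for 1.23% of all genes tested. Its means were 1.46 TPM in WT and 0.640 TPM in KO (limma adjusted p = 0.684). By size of difference, the leading TE markers were *TFAP2A* (−1.34, SE 0.50), *PTGS2* (−0.86, SE 0.70) and *IFNT2* (0.34, SE 0.90), and the leading epiblast markers *NANOG* (−1.43, SE 1.34), the growth factor gene *FGF4* (−0.96, SE 0.77) and *SOX2* (−0.68, SE 0.89). For the hypoblast they were *HNF4A* (−1.51, SE 0.70) and *SOX17* (−1.12, SE 0.63), and the limma adjusted p of these 8 markers lay between 0.745 and 0.987.

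Of the 30 relations between the 10 genes and the 3 scores, within genotypes, 0 passed an adjusted p of 0.05 and the closest was that of *SMAD6* with the epiblast score. For this pair r was 0.90 and rho 0.90 (exact permutation p = 0.00174 and 0.00556, adjusted p = 0.0521 and 0.167), and r was 0.84 without WT_1 and TE_3, the 2 embryos farthest from the median score. *SMAD6* was at 5.74 TPM in WT_4, where *SOX2* and the pluripotency gene *NANOG* were highest at 90.4 and 262 TPM, and at 0.348 TPM in WT_1, where *NANOG* was at 0.127 TPM. With the hypoblast score, *SMAD6* had an r of 0.80 and a rho of 0.77 (exact permutation p = 0.0597 and 0.0472, adjusted p = 0.358 and 0.283). That r was 0.83 without WT_3 and WT_5, the 2 embryos farthest from the median score, but 0.39 without WT_1. The hypoblast markers *LAMA1* and *GATA4* had r below 0 with *SMAD6* within genotypes (−0.46 and −0.19), and the others of that score were above 0. With the TE score, *SMAD6* had an r of −0.64 and a rho of −0.63 (exact permutation p = 0.05 and 0.0698, adjusted p = 0.358 and 0.296).

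The r of *ID1* with the epiblast score was 0.84 and the rho 0.75 (exact permutation p = 0.0122 and 0.0424, adjusted p = 0.182 and 0.283), and r was 0.64 without WT_1 and TE_3. With the TE score its r was −0.78 and its rho −0.87 (exact permutation p = 0.0222 and 0.0135, adjusted p = 0.222 and 0.203), and r was −0.87 without WT_4 and TE_4. Among the 11218 genes, ordered by r with *ID1* within genotypes, the 7 epiblast markers stood between place 21 (*NANOG*, r = 0.93) and place 1374 (*KLF17*, r = 0.45). The 9 hypoblast markers were spread from place 34 (*HNF4A*, r = 0.92) to place 9652 (*GATA4*, r = −0.59), and 3 of them, *GATA6*, *LAMA1* and *GATA4*, had r below 0. *ID1* and *SMAD6* had an r of 0.80 with each other (rho 0.73, exact permutation p = 0.0188 and 0.0403, adjusted p = 0.281 for r over the 45 pairs of the 10 genes), and r was 0.48 without WT_1 and TE_3. Of these 45 pairs, 0 passed the adjustment and 4 had an unadjusted p under 0.05 for r.

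*ID2* had an r of −0.27 and a rho of −0.32 with the epiblast score (exact permutation p = 0.483 and 0.419, adjusted p = 0.763 and 0.757). Its r was 0.25 with the TE score and 0.29 with the hypoblast score (rho 0.067 and 0.12, exact permutation p = 0.580 and 0.384 for r, adjusted p = 0.862 and 0.678). The 9 hypoblast markers were spread from place 64 of 11218 within genotypes (*SOX17*, r = 0.82) to place 8409 (*GATA6*, r = −0.52), and *COL4A1* (r = −0.42) and *HNF4A* (r = −0.011) were below 0 as well. The part of lineage composition in the levels of *ID1*, *SMAD6* and *ID2* was not tested.

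**Figure D5:**
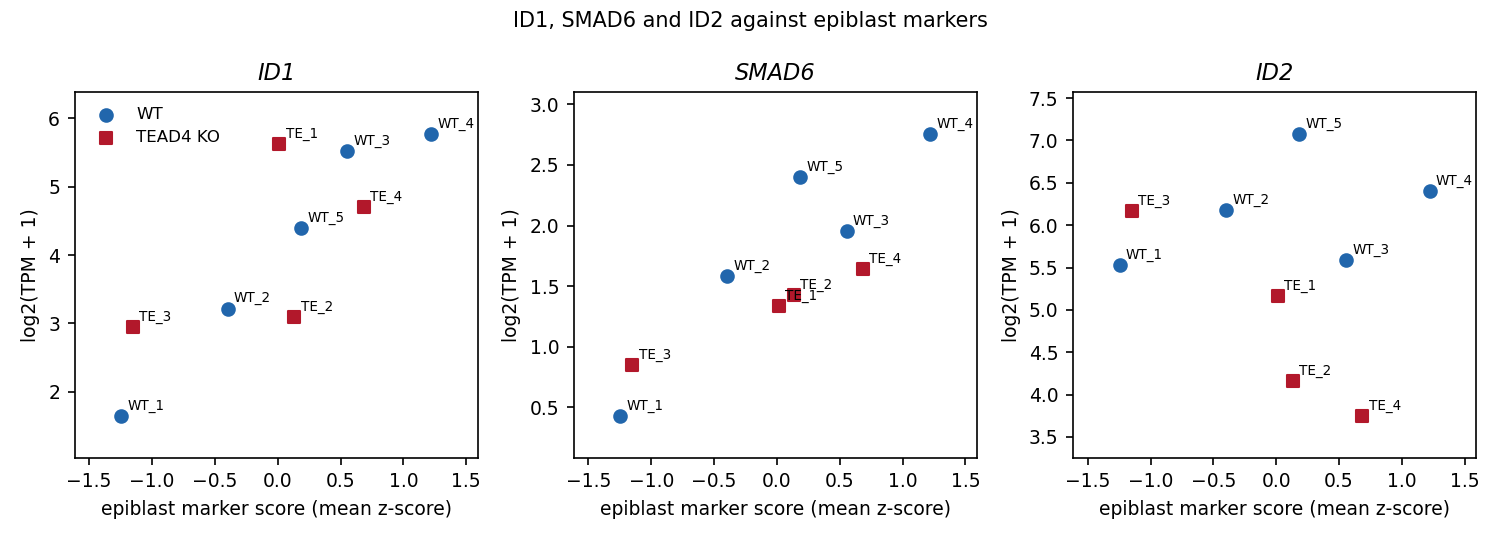
Log2(TPM + 1) of ID1, SMAD6 and ID2 (vertical axes) against the epiblast marker score, the mean z-score over 7 markers (horizontal axis), in 5 WT (blue circles) and 4 TEAD4 KO (red squares) embryos. ID1 and SMAD6 are lowest in WT_1 and highest in WT_4, the embryos with the lowest and highest score, whereas ID2 is lowest in TE_4 and highest in WT_5 (r = −0.27 within genotypes).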

How the data were processed

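RNA was taken from individual D8 blastocysts, 5 WT and 4 KO, and 1 library was sequenced per embryo, without pooling. The study's methods name mRNA capture on beads and SMART-Seq libraries, whereas the sample labels name a total RNA kit and stranded mRNA libraries, and which of them applies was not settled. Reads were pseudoaligned by the authors after quality control (FastQC, fastp and kallisto are named in the submitters' processing notes) and deposited as TPM for 21512 genes in 9 libraries. The annotation and genome build are not given in the sources used here, so no coordinates or sequences are given. Columns were assigned to genotypes by the prefix they share with the sample titles, and 0 columns were left without a sample. TPM keeps no read depth, so the depth of each library is unknown here and no counting error is given for low values.

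Genes with a median above 0.1 TPM were fitted with limma 3.58.1 in R 4.3.3 on log2(TPM + 1), with eBayes and its trend option. Calls needed a Benjamini-Hochberg adjusted p under 0.05 together with a log2 fold change beyond 1 in size. The fit and the permutation tests were checked on simulated data. Fold changes on this scale understate changes of low genes. Correlations and orders of level were tested by exact permutation as described in the report. The members, gene lists and tests were chosen with earlier results of these data known. Named genes are the 10 members, *TEAD4*, the 5 genes most like *ID2*, and, of each list, genes without overlap and the 3 with the largest fold change; the others named were tested for correlation with *ID2* or chosen after their values were seen. A few genes of the lists are not analysed here. The fit was repeated leaving out each embryo, with size factors (median of ratios) or quantile normalization, and adding 0.1 TPM in place of 1. It was also run on the 18549 genes above 0 TPM in any embryo, or only on those with a median above 1 TPM. Further runs used limma with robust eBayes or with no trend. Python 3.11.15, numpy 2.4.6, pandas 2.3.3 and matplotlib 3.10.9 were used.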

Additional observations from a re-analysis of the deposited data

Results flagged for a closer look

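Each of the 10 genes and *TEAD4* was looked at within WT and within KO embryos by Dixon's test. It looks for a sample far from the others of its genotype. There were 22 groups of values, of which chance flags about 1 in 20 if the values are normally distributed. Whether TPM values meet this was not tested. The test flagged 2 groups. *ID3* in WT_1 was at 32.8 TPM, where the next WT embryo was at 4.81 TPM. *SMAD1* in TE_2 was at 49.3 TPM, where the next KO embryo was at 17.7 TPM.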

How the results depend on the processing

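The count of called genes over the whole table, 3, was 8 with a pseudocount of 0.1 TPM, 8 with a median above 1 TPM, 5 with size factors, 6 after quantile normalization, 5 in limma without trend, 6 with robust eBayes and 0 to 10 with single embryos left out; the cause was not tested. The counts of 0 called pathway genes, 0 response genes moving with *ID2* and 0 neighbouring genes told apart stayed 0 in every alternative run for them. The 120 alternative log2 fold changes of the 10 genes all differed from the reported ones by less than the spread between embryos. That spread is a loose measure, at 1.54 log2 units for *ID1*, whose difference was −0.015. The sign of the difference changed in some alternatives for *ID1*, *ID4*, *BMPR1A*, *SMAD1* and *SMAD5*. With single embryos left out, r with *ID2* within genotypes changed sign for *BMP2* (−0.58 to 0.052), *ID1* (−0.24 to 0.39), *ID3* (−0.36 to 0.16), *SMAD5* (−0.20 to 0.60) and *SMAD6* (−0.25 to 0.46). In alternatives chosen after seeing the data, r with the epiblast score with single embryos left out was 0.87 to 0.94 for *SMAD6* and 0.73 to 0.91 for *ID1*. No paired analysis was possible because the sample titles give the genotypes no shared numbers and each embryo is separate.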
